A study of Mus musculus with 2 samples.

Results

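The nuclear factor I family has 4 genes in mouse, Nfia, Nfib, Nfic and Nfix, and all 4 of them, among 21924 protein-coding genes of GENCODE vM21, are described here by the open chromatin around them. Nfib (chr4:82290173-82705750, minus strand) and Nfia (chr4:97772734-98118874, plus strand) lie on the same chromosome, and Nfix (chr8:84699876-84800344) and Nfic (chr10:81396186-81455635), both on the minus strand, on others. Each gene was taken with its body and 50 kb on each side, and the peaks, hotspots and footprints that fell in this window were counted in each library. Male B6CASTF1/J mice, offspring of a cross between a laboratory strain and CAST mice, gave frontal cortex at 10 days of age. The labels give 1 group of 2 biological replicates and no treatment or second genotype. A note of 3 males stands with each sample, the donor entry is identical for both, and pooling is not stated, so the spread between the replicates may be technical. Whole tissue was used, so accessible sites of all its cell types are mixed and a weaker site cannot be told apart from a site open in fewer cells.

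Nuclear factor I proteins bind DNA as dimers at a palindrome whose arms read TTGGC and can raise or lower transcription of the genes they bind. In the developing cortex Nfia, Nfib and Nfix are known for driving the change of progenitors from neuron production to glia production and for the maturation of astrocytes, while Nfic is known for its role in tooth root formation and is expressed in many tissues. The proteins share a conserved DNA-binding domain, and each gene gives several isoforms from alternative starts and splicing.

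DNase-seq marks open chromatin by cutting nuclei with the enzyme DNase I and sequencing the cut ends. A peak is a short interval with many cuts, a hotspot is a wider domain of raised cutting, and a footprint is a stretch of about 10 bases protected from cutting inside open DNA. The strength of a peak is its density, the authors' read-depth normalised cut signal. Each library was processed more than once by the authors. The first run is taken here as the peak lists derived from filtered alignments, and the second run as the peak lists derived from the sequencing reads. The question was how far both runs describe the same sites at these genes.

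The sequences that follow are, by first-run density in replicate 1, the strongest site lying in each gene itself that all 4 peak lists held and that contained no UTR base. They are printed from the plus strand of the mm10 reference, GRCm38.p6, with capitals for bases inside footprints of both libraries.
Nfia intron, chr4:97868941-97869140: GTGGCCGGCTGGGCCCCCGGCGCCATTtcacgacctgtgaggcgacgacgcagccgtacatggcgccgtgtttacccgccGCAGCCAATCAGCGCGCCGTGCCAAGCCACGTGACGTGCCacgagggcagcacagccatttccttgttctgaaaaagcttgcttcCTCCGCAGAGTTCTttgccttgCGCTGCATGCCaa
Nfib intron, chr4:82513141-82513440: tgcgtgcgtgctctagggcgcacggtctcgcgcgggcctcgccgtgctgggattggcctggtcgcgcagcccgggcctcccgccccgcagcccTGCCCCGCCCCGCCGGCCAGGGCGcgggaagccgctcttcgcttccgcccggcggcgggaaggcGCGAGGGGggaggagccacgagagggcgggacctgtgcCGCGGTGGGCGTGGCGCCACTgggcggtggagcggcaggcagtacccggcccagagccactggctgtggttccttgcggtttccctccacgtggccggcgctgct
Nfic intron, chr10:81432961-81433200: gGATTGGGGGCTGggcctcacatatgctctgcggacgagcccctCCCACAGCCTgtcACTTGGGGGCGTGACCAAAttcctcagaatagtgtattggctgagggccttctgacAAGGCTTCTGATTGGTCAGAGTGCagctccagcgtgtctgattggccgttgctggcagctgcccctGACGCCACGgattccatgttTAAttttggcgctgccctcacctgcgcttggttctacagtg
Nfix intron, chr8:84709285-84709420: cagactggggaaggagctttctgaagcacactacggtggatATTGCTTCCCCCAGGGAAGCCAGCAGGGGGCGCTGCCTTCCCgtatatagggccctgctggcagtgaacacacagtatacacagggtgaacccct

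The footprinted letters differed between the 4 sites. In the Nfia site 92 bases lay in footprints of both libraries, among them a CCAAT box, an E-box (CACGTG) and 2 of its 3 TTGGC arms. The Nfic site held 77 such bases in 6 stretches, with 2 of 4 CCAAT boxes but none of its 3 TTGGC arms wholly inside them. The Nfib site was 77.3% G and C and had 1 of 5 GC boxes (GGGCGG) inside its 53 footprinted bases. In the Nfix site the 42 bases in footprints of both libraries formed 1 unbroken stretch over AGGGGGCGC, the core letters of the CTCF motif. This stretch need not be a single footprint, and the site had no TTGGC arm. These letters were searched on both strands, CCAAT can overlap TTGGC where the run is GCCAAT, and the motifs other than NFI were chosen after the sequences were seen. Among all first-run peaks, CCAAT was present in 24.4% and 24.1% (replicates 1 and 2), CACGTG in 6.75% and 6.915%, GGGCGG in 34.6% and 30.6%, AGGGGGCGC in 2.46% and 2.03% and TTGGC in 43.2% and 41.7%. A match is a description of letters and not a bound site.

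The 2 kinds of site within Nfic are shown by a pair of intronic sites, each listed by 1 run alone in both libraries. Each is printed as 150 bases around its middle, with the same meaning of capitals. No printed base lay in footprints of both libraries. The whole first-run site overlapped 4 and 1 footprints in replicates 1 and 2, and the whole second-run site 4 and 3. Whether these footprints share bases between the libraries was not tested.
Nfic first-run site, chr10:81421666-81421815: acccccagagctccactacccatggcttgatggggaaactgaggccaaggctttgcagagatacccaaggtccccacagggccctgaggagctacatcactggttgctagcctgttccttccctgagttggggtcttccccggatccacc
Nfic second-run site, chr10:81411843-81411992: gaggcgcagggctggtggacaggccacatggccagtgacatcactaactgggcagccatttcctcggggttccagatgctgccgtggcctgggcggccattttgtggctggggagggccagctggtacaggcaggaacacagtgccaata
The first of them was chosen as the first-run site of this kind outside hotspots with the lowest density in replicate 1, and had densities of 0.357 and 0.487 in replicates 1 and 2, and its lowest per-base false discovery rate (FDR) was 6.66e-05 and 2.56e-06. The other was the denser in replicate 1 of the 2 second-run sites of this kind, with densities of 2.30 and 1.71, and its lowest FDR was 0.00374 and 0.0105. The order of the densities follows from how the pair was chosen, and every first-run peak held a base with FDR under 0.001.

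Over the whole genome the first-run lists held 39608 and 45915 peaks in replicates 1 and 2 and the second-run lists 50261 and 54759, with 76696 and 91160 hotspots and 170738 and 227460 footprints. How many reads stand behind each library is unknown. The tissue label was checked on markers, counting genes with a first-run promoter peak (within 1 kb of a start) in both libraries. The cortex markers Emx1 and Neurod2 had one in both runs, Neurod6 and Tbr1 in the second run only, and Slc17a7 in neither. Of 5 hindbrain and spinal cord regulators 0 had one in either run, of 2 muscle genes 0, and of 3 liver genes 1, which was Apob.

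Nfic differed from its relatives in the number of peaks and in how far the number depended on the run. In its window the first run listed 65 peaks in replicate 1 and 33 in replicate 2, and the second run 17 and 14. Every first-run count was above every second-run count. At the other 3 genes the order was the opposite.
The Nfia window held 16 and 16 first-run peaks against 22 and 21 in the second run. The Nfib window held 14 and 21 against 31 and 27, and the Nfix window 19 and 20 against 31 and 27. Per 10 kb of window, Nfic ranked 5 and 159 of 21924 genes in the first run (4.08 and 2.07 peaks per 10 kb) and 1318 and 2621 in the second (1.07 and 0.878). Nfix stood high in both runs, at 0.948 and 0.998 peaks per 10 kb in the first and 1.55 and 1.35 in the second. Nfia, with 0.359 in both libraries of the first run, and Nfib, with 0.272 and 0.407, lay nearer to the median gene, at 0.266 and 0.285.

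**Figure D1:**
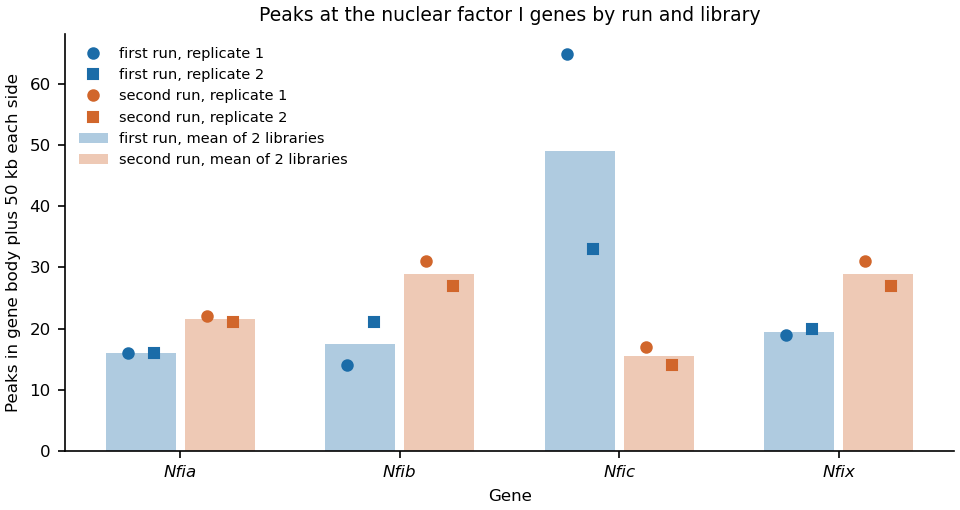
Number of peaks in the gene body plus 50 kb each side (vertical axis) for the 4 genes (horizontal axis), with points for each library and bars for the mean of 2 libraries, in the first run (blue) and the second run (orange). Nfic has 65 and 33 first-run peaks against 17 and 14 second-run peaks, and the other genes have more second-run than first-run peaks.

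The run comparison tested whether first-run and second-run peaks were split at a gene as they were over the rest of the genome, with a two-sided Fisher's exact test per gene and library and Benjamini-Hochberg adjustment over all genes with at least 10 peaks. At Nfic the ratio of first-run to second-run peaks was 3.82 in replicate 1 and 2.36 in replicate 2, where all peaks gave 0.788 and 0.8385. The log2 odds ratio was 2.25 in replicate 1 (Fisher's exact test, adjusted p = 2.93e-07) and 1.46 in replicate 2 (Fisher's exact test, p = 0.00104, adjusted p = 0.0757). Nfic therefore passed in replicate 1 and not in replicate 2, and was not called by the rule that asks for both. The background for replicate 1 alone was 0.3% of 10002 genes with relatively more first-run peaks, for replicate 2 alone 1.01% of 10821, and for both together 0.173% of 9241 genes (16 genes). Many of the 16 lie on chromosome 9 with the same counts, 14 and 17 first-run and 0 and 1 second-run peaks. The 16 genes are therefore not 16 separate places.
For the other members the log2 odds ratios in replicates 1 and 2 were -0.10 and -0.13 at Nfia, -0.78 and -0.10 at Nfib and -0.35 and -0.17 at Nfix, all with an adjusted p of 1 in Fisher's exact test. The peaks of a gene lie close together and are not independent. The lists of the 2 runs come from the same library and share most sites, which the test treats as separate. These p-values therefore describe the lists.
The call at Nfic turned on the window and on how peaks were counted. It passed in both libraries with the gene body alone (highest adjusted p = 0.0163, Fisher's exact test), with 10 kb on each side (0.0167) and among genes with at least 20 peaks (0.0266). It did not pass among genes with at least 5 peaks (highest adjusted p = 0.108, Fisher's exact test), with peaks under 150 bp apart merged (0.775) or with lists of equal size. With peaks under 2 kb apart merged into 1 site, a setting chosen after the data were seen, the mean log2 odds ratio was -0.03, and with the stronger 50% of each list it was 0.30.
One of the 16 called genes is the upstream neighbour of Nfic, Celf5, which encodes an RNA-binding splicing regulator and was named after its values were seen. Its window had 61 and 28 first-run against 9 and 9 second-run peaks (Fisher's exact test, adjusted p = 1.36e-09 and 0.0367), and it overlaps that of Nfic, so the 2 genes share peaks.

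Most first-run peaks of Nfic were not found again in the second run, whereas most of those of the other 3 genes were. Of the Nfic first-run peaks, 12 of 65 (18.5%, 95% exact binomial interval 9.92 to 30.03) in replicate 1 and 11 of 33 (33.3%, 18.0 to 51.8) in replicate 2 overlapped a second-run peak of the same library. Over all first-run peaks the shares were 94.75% and 90.1%. The intervals cover counting error only.
First-run peaks of the other genes were found again at 80% or more. At Nfia they were 16 of 16 and 14 of 16, at Nfib 13 of 14 and 21 of 21, and at Nfix 19 of 19 and 16 of 20. These shares rest on an overlap of at least 1 bp. When 50% of both peaks had to overlap they were 9 of 16 in both libraries at Nfia, 9 of 14 and 19 of 21 at Nfib and 12 of 19 and 9 of 20 at Nfix, beside 68.0% and 62.2% of all first-run peaks and 15.4% and 27.3% at Nfic. In the reverse direction, 64.7% and 78.6% of the Nfic second-run peaks were found in the first run, beside 75.3% and 75.8% of all second-run peaks. Nfib had the lowest reverse share in replicate 1, 41.9% (13 of 31, exact interval 24.55 to 60.9), but 77.8% (21 of 27) in replicate 2, so the libraries differed there. Nfix was low in both, at 61.3% (42.2 to 78.15) and 59.3% (38.8 to 77.6), with the genome-wide value inside both intervals.

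**Figure D2:**
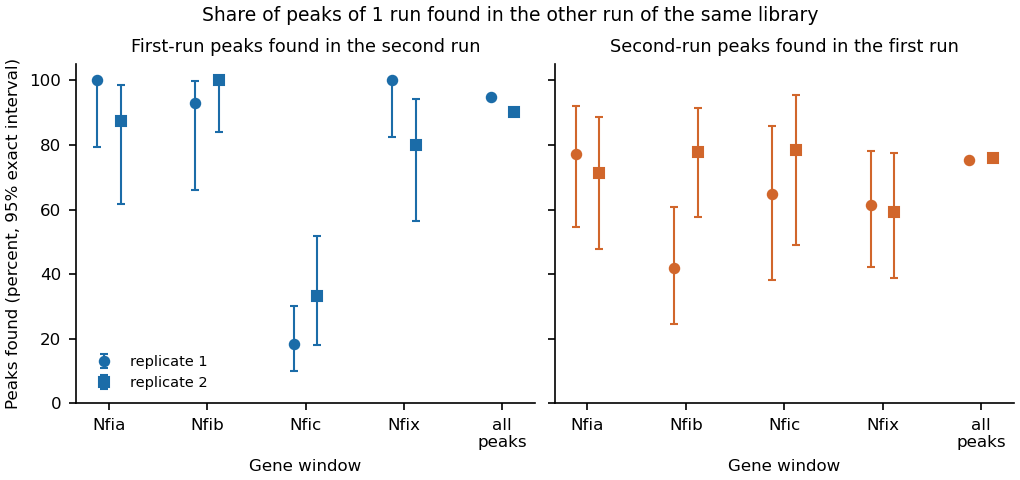
Percent of peaks that overlap a peak of the other run in the same library (vertical axis) for the 4 gene windows and all peaks (horizontal axis), with 95% exact binomial intervals and a symbol for each replicate. Nfic first-run peaks stand at 18.5% and 33.3%, and those of the other 3 genes at 80% or more.

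Where both runs listed a site, they gave it nearly the same strength, which is no independent agreement because both processed the same library. Pairs were peaks that overlapped exactly 1 peak of the other run. The median ratio of second-run to first-run density over paired peaks was between 1.01 and 1.025 at each member in each library, over 10 to 19 pairs, and 1.02 over all pairs of either library. The highest ratio at a member was 1.43, at Nfix in replicate 1, and the lowest 0.961, at Nfia in replicate 2.

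The sites that set Nfic apart lay close together and were weak for their list in replicate 1, less so in replicate 2. In replicate 1 the first run listed 33 peaks, each less than 2 kb from the next, along 18.9 kb from 81416893 to 81435760 on chromosome 10, inside the gene body, which spans 81396186 to 81455635. This was the cluster with the most peaks in the whole list, of 29701 clusters, whose median was 1 peak. In replicate 2 the cluster ran from 81420618 to 81434260 with 22 peaks, and 14 of 32937 clusters, this one included, held at least as many. The 2 kb distance was chosen after the data were seen.
Within the longer of these intervals the second run listed 4 peaks in each library. Hotspots there numbered 8 and 7, and footprints 84 and 94. The first-run peaks ranged in density from 0.292 to 6.31 with a median of 0.715 in replicate 1, and from 0.343 to 5.01 with a median of 0.836 in replicate 2. Of the bases in the interval, 75.1% and 43.5% had an FDR under 0.001 in the authors' per-base track.
Upstream of the interval the libraries parted. Between its end and the window's end, through the most upstream start of Nfic and into Celf5, replicate 1 had 28 first-run peaks, of which 25 were not in the second run. Replicate 2 had 4, of which 1 was not. Downstream, replicate 1 had 4 and replicate 2 had 6 first-run peaks, with 0 and 1 not in the second run. The second run listed 3 peaks upstream in each library, hotspots there numbered 6 and 4, and footprints 59 and 27.

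**Figure D3:**
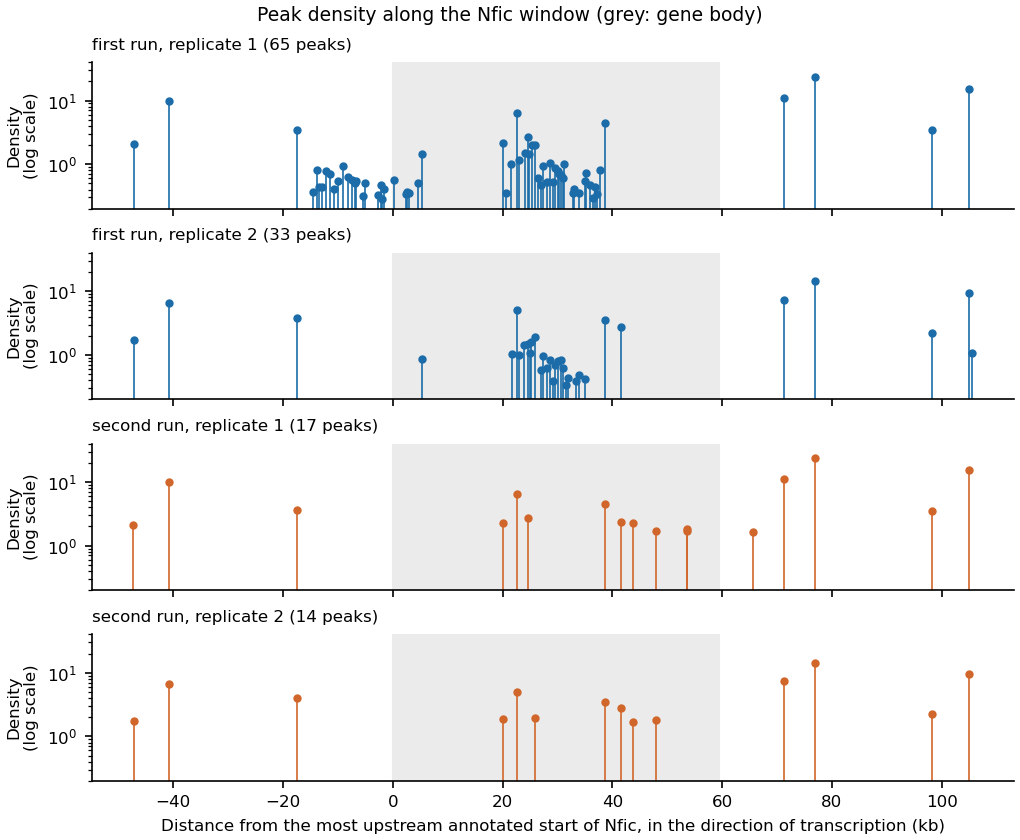
Density of each peak (vertical axis, log scale) by its distance in kb from the most upstream annotated start of Nfic in the direction of transcription (horizontal axis), in 4 panels for the 2 runs and 2 libraries, with the gene body in grey. A dense row of peaks, weak for the list in replicate 1 and less so in replicate 2, fills the middle of the gene in both first-run panels. It fills the region before the gene in replicate 1 only, and the strong peaks are at the same places in all panels.

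Density and FDR were set against each other at each site, since the first-run list and the per-base FDR come from the same alignments. In the Nfic window, the first-run peaks without a second-run partner numbered 53 and 22. Their densities ran from 0.282 to 2.04 (median 0.5415) in replicate 1 and from 0.343 to 1.60 (median 0.817) in replicate 2. All of them, like every first-run peak, held a base with FDR under 0.001, and 5 of 53 and 6 of 22 lay in a hotspot. Over the genome, 67.7% and 46.3% of the first-run peaks without a partner lay in a hotspot. Hotspots and second-run peaks both derive from reads, so hotspot overlap is not independent of having a second-run partner.
These peaks were weak for their list in replicate 1 and less so in replicate 2. The median of the 53 was above only 3.68% of all first-run peaks, and 31 of them lay under the 5th percentile of the list, 0.574. The median of the 22 was above 36.7% of the list, and 1 of them lay under the 5th percentile, 0.369.
The second-run peaks of Nfic without a first-run partner were stronger than nearly all of these. They numbered 6 in replicate 1, with densities from 1.63 to 2.36, and 3 in replicate 2, from 1.71 to 1.91. None of them held a base with FDR under 0.001 in that library, where 24.1% and 25.2% of all second-run peaks without a partner did. All lay in hotspots, as did every second-run peak over the genome, with or without a partner, so this overlap does not set them apart. In replicate 1, 51 of the 53 first-run peaks were under the lowest of the second-run ones, and in replicate 2 all 22 were.
At the other genes first-run peaks without a partner were rare in replicate 1, with 0 at Nfia and Nfix and 1 at Nfib, of density 1.65. In replicate 2 Nfia had 2, with densities of only 0.119 and 0.165 and in no hotspot, Nfib had 0 and Nfix had 4, from 0.672 to 0.856 and all in hotspots. Second-run peaks without a partner numbered 5 and 6 at Nfia, 18 and 6 at Nfib and 12 and 11 at Nfix. Of these, 1 and 0, 4 and 1, and 0 and 1 reached FDR under 0.001, beside the genome-wide shares just given.

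**Figure D4:**
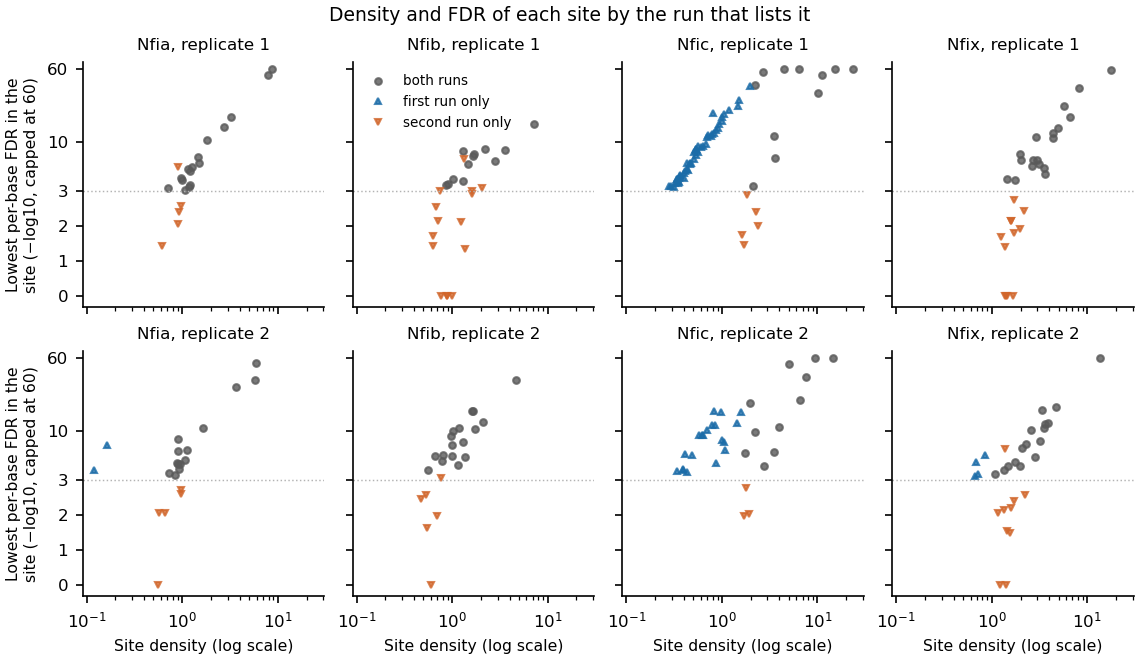
Lowest per-base FDR in each site as −log10, capped at 60 (vertical axis, linear up to 3 and log above) against the density of the site (horizontal axis, log scale) for the 4 genes in replicates 1 (top) and 2 (bottom), coloured by the run that lists the site, with a dotted line at FDR 0.001. At Nfic the sites of the first run alone form a band at low density above the line, and the sites of the second run alone lie mostly to their right and below it.

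The window of Nfic was also high in bases of low FDR. This measure does not depend on how peaks were divided, but it comes from the same alignments as the first-run peaks. It is therefore no separate support for their number. Bases with FDR under 0.05 made up 22.4% of the Nfic window in replicate 1, rank 2 of 21924 genes, and 11.01% in replicate 2, rank 152. The median gene had 1.59% and 1.675%. Nfix had 4.69% and 4.30%, Nfia 1.92% and 1.78% and Nfib 1.43% and 1.90%.
The replicate comparison used the same test with replicate 1 against replicate 2. In the first run Nfic had relatively more peaks in replicate 1, with a log2 odds ratio of 1.18 (Fisher's exact test, adjusted p = 0.0227), and 0.13% of 9252 genes were called in this direction. In the second run the log2 odds ratio was 0.40 (Fisher's exact test, adjusted p = 1). Over both runs together 0% of 9038 genes were called by this Fisher's exact test, and 0 genes had an unadjusted p under 0.05 in both runs. Nfia, Nfib and Nfix had an adjusted p of 1 in both runs.

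The overlapping peaks of all 4 lists were then joined into sites. Nfia had 24 sites, of which 12 were in all 4 lists. Nfib had 30 with 11 in all lists, Nfix 35 with 14, and Nfic 68 with 9. Sites held by the first run in both libraries and by the second run in neither numbered 15 at Nfic and 0 at each of the other 3 genes. The reverse kind numbered 2 at Nfic, 0 at Nfia, 3 at Nfib and 4 at Nfix. Sites were joined in these 4 windows alone, so no share over all genes stands beside the counts. Whether such counts are usual was not tested.

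Nfia had its strong sites at its most upstream start and in an intron. The intronic site printed above had densities of 8.56 and 5.78 in the first run and 8.60 and 5.77 in the second. The promoter site at chr4:97772156-97772465 had 7.81 and 5.92 in the first run and 7.84 and 5.97 in the second. A further promoter site at chr4:97773246-97773519 had 3.11 and 3.56, then 3.26 and 3.66, so it was the only one of the 3 that was higher in replicate 2. Densities were higher in replicate 1 over the whole lists, with medians of 1.47 against 1.01 in the first run and 1.305 against 0.966 in the second.
The starts of 5 more coding transcripts lie together near 97777608 to 97777834. There the strongest peak had a density of 1.18 in replicate 1 and none was listed in replicate 2 in the first run, while the second run listed 1.20 and 0.966. So 2 of 8 annotated starts of Nfia had a first-run peak in both libraries and 7 of 8 a second-run peak. The protein-coding start at 97880119 had no peak in any of the 4 lists.

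Nfib was open in its introns and at a group of internal starts. The printed intronic site had 7.19 and 4.70 in the first run and 7.17 and 4.71 in the second. The promoter site at chr4:82506093-82507268 had 3.61 and 1.73, then 3.59 and 1.74, and an intronic site at chr4:82494917-82495183 had 2.69 and 2.09, then 2.78 and 2.11. All 3 had higher densities in replicate 1, as did the whole lists. In the first run the printed site had 7.53% of the list above it in replicate 1 and 6.66% in replicate 2. The other intronic site had 26.05% and 20.2%, and the promoter site 19.2% and 25.5%.
Of the 11 sites in all 4 lists, 10 were intronic and 1 a promoter. Both runs had peaks in both libraries at 6 of 8 annotated starts, those between 82505308 and 82505779. The most upstream start, 82705750, had a peak only in the second run of replicate 1, with a density of 0.631. No peak of the first run lay in the flanks of Nfib, and no other protein-coding gene overlaps the window.

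Nfix shared its window with 9 other protein-coding genes, and its strongest sites belonged to them or to no gene. The Calr promoter, of the chaperone calreticulin, had 17.7 and 13.75 in the first run and 17.6 and 13.68 in the second. An intergenic site at chr8:84663949-84664231 had 7.83 and 4.56, then 8.28 and 4.67, and a second one at chr8:84810921-84811251 had 6.37 and 3.48, then 6.55 and 3.49. The order of these 3 was the same in each list.
Only 3 of the 14 sites in all 4 lists were placed in Nfix itself. The strongest in replicate 1 was a promoter site at chr8:84773864-84774230, with 4.27 and 2.52 in the first run and 4.36 and 2.58 in the second. The printed intronic site had 3.53 and 2.73, then 3.51 and 2.81, and was the stronger of the pair in replicate 2. A first-run peak in both libraries was found at 2 of 8 annotated starts, at 84773396 and 84774369, and a second-run peak at 3. The 3 most upstream starts, from 84800024 to 84800344, had no peak in any list.

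Nfic had 12 other protein-coding genes in its window, and 8 of its 9 sites in all 4 lists were placed at other genes, 1 of them at Mir1191b, a miRNA gene inside the Nfic body. The 3 strongest were promoters of neighbours, with first-run densities of 23.3 and 14.3 at Fzr1, a cofactor of the anaphase-promoting complex, 15.1 and 9.30 at Hmg20b, a subunit of a chromatin-modifying complex, and 11.04 and 7.42 at Dohh, an enzyme that modifies a translation factor. In the second run they had 23.5 and 14.45, 15.2 and 9.405, and 11.2 and 7.545. The promoters of these neighbours were thus in all 4 lists.
The printed intronic site, with 6.31 and 5.01 in the first run and 6.42 and 5.02 in the second, was the one placed in Nfic itself. Its starts depended on the run: 4 of 7 had a first-run peak in both libraries and 1 of 7 a second-run peak. The 3 starts from 81427114 to 81427187 had first-run densities of 1.06 in replicate 1 and 0.836 to 0.968 in replicate 2, and no second-run peak. The start at 81407641 had second-run densities of 1.71 and 1.80 and no first-run peak. The start at 81431005 had a first-run peak of 2.66 and 1.60, and in the second run one of 2.67 in replicate 1 and none in replicate 2. The most upstream start, 81455635, had a first-run peak in replicate 1 alone, of 0.563.

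Hotspots, which the authors derived from the reads, placed Nfic lower among all genes than its first-run peaks did, at ranks 606 and 1545 of 21924 by hotspots per 10 kb. The Nfic window held 25 and 23 hotspots over 7.89% and 7.44% of its length, and Nfix held more, 49 and 48 over 11.4% and 10.1%. Nfia held 33 and 27, and Nfib 35 and 41. The widest hotspot of Nfib covered its internal promoters, 2649 bp and 2800 bp.
At Nfia the widest was 1640 bp at its promoter in replicate 1, and 1470 bp in an intron of the overlapping gene E130114P18Rik in replicate 2. At Nfix it was the Calr promoter in both libraries, 1234 and 1264 bp. At Nfic it was the Fzr1 promoter in replicate 1, 1150 bp, and the Hmg20b promoter in replicate 2, 1134 bp.
Footprints, which come from the first-run alignments, were most numerous at Nfic, with 187 and 167. Nfia had 68 and 81, Nfib 65 and 107 and Nfix 96 and 107. Of the Nfic footprints 76.5% and 60.5% lay in first-run peaks and 34.2% and 38.9% in second-run peaks, whereas over all footprints 66.9% and 59.98% lay in first-run and 85.1% and 77.3% in second-run peaks. Footprints of Nfic were found in the other library at 42.25% and 46.7%, beside 55.6% and 40.7% of all footprints.

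The full binding palindrome of the family was searched in these windows, and its rate in other windows was not counted. The full site, TTGGC, any 5 bases and GCCAA, occurred 3 times in the Nfia window, once in those of Nfib and Nfic and 0 times in that of Nfix, and none of the 5 lay in a peak of any of the 4 lists. Over all peaks the share with a full site was 0.0858% and 0.0784% in the first run and 0.125% and 0.106% in the second. One of them overlapped a footprint and a hotspot in both libraries, in an intron of Nfia downstream of the printed site, and it is shown with the 15 letters of the site in capitals.
Nfia intron full site, chr4:97869259-97869273: tcccttcTTGGCCAGAGGCCAAgggcacgg
In replicate 1 the footprint with 10 bases added on each side held the whole site, and in replicate 2 it overlapped part of it.
Single TTGGC arms were in 31.25% and 25.0% of the Nfia first-run peaks, 57.1% and 61.9% at Nfib, 53.85% and 60.6% at Nfic and 57.9% and 55.0% at Nfix. The first-run Nfic peaks without a partner held them at 52.8% and 54.55%, where all first-run peaks without a partner had 28.0% and 30.2% but were narrower, with median widths of 102 and 127 bp against 260 bp in both libraries at Nfic. They had 60.2% and 61.9% G and C, and 8.47% and 13.7% of their bases were soft-masked as repeats in the reference, where all first-run peaks without a partner had 57.7% and 55.1% G and C and 11.7% and 12.9% masked.

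Of 20 related genes, regulators, partners and targets of nuclear factor I proteins in brain, 16 had a first-run promoter peak in both libraries and 17 a second-run one, where the shares over all genes were 55% and 57.9%. Among them were Sox9, a regulator of glial fate, with 5 and 4 first-run and 7 and 9 second-run peaks in its window, and Hes5, a Notch target, with 11 and 11 against 11 and 15. Among its astrocyte and radial glia markers, the glutamate transporter gene Slc1a2 and the fatty acid binding protein gene Fabp7 had a promoter peak in both libraries of both runs, the transporter gene Slc1a3 in the first run only, the filament gene Gfap in the second run only, and the water channel gene Aqp4 in neither. Of the 14 tested in the run comparison 0 were called by Fisher's exact test in either direction. Their median log2 odds ratio was -0.07 and -0.13 over the 20 genes, beside 0.07 and 0.01 over the 9241 genes tested.

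Genes alike in peak counts were sought among 9208 genes whose window does not overlap that of a member, which leaves out Celf5. Those most like each member had the smallest distance between log2(count + 1) of peaks over the 2 runs and 2 libraries (4 values). For Nfia they were Dpp6, Astn2 and Arhgap26, at distances of 0.087 to 0.10. For Nfib they were Dscaml1, Prkag2 and Slc22a23 (0.28 to 0.36), and for Nfix they were Prkag2, Hist1h2af and Hist1h4h (0.28 to 0.32). For Nfic the nearest were Nfkb2, Cuedc2 and Fbxl15, at 1.07 to 1.10. The closest of the genes compared with Nfic, Nfkb2, had 31 and 32 first-run and 15 and 16 second-run peaks, fewer than Nfic in the first run.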

How the data were processed

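DNase-seq interval lists of 2 libraries were used on mm10. Per the deposited README of each library, the first-run peaks, footprints and FDR tracks derive from filtered alignments, and the second-run peaks and the hotspots from reads. A peak's density is a signal the authors scaled by read depth before they deposited it. Hotspots give their highest −log10 FDR, per the file headers. The p-value field of the footprints that the authors deposited is 0.01 throughout, and the deposited per-base tracks list p-value data as an FDR for bases under 0.05. For the aligner, the callers and the thresholds the sources used here give no entry. The first-run list holds peaks with a base at FDR under 0.001, tested on the tracks.

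Windows, starts and places came from GENCODE vM21 and sequence from GRCm38.p6, and 0 of 756597 intervals passed the end of a chromosome. Peaks matched if they overlapped by at least 1 bp. Odds ratios had 0.5 added to each cell, Fisher's exact test was adjusted by Benjamini-Hochberg over genes with at least 10 peaks, and a call needs an adjusted p under 0.05 in both libraries (or both runs) in 1 direction. On simulated data with 200 changed genes the run comparison called 0, 8, 195 and 200 of them at folds of 1, 2, 4 and 8, with 0 false calls. The changed genes were taken from windows with many peaks, and every count was drawn independently. The result therefore does not carry over to changed genes with few peaks or to peaks that cluster or are shared by the runs. Some cortex markers are not reported here. Named genes are the members, the related list, the 3 most alike genes, the 3 strongest shared peaks and the widest hotspots. The members and lists were chosen with earlier results of these data known. Alternatives were the window, the looser and larger lists, the stronger 50%, equal list size, merging within 150 bp, the minimum of peaks, 50% reciprocal overlap, promoter windows of 500 and 2500 bp and each library alone. Reads of a cross mapped to 1 parental reference can favour that allele, and depth in reads is unknown. Python 3.11.15, numpy 2.4.6, pandas 2.3.3, scipy 1.17.1, pysam 0.24.0 and matplotlib 3.10.9 were used.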

Additional observations from a re-analysis of the deposited data

How the results depend on the processing

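The design has 1 group, so nothing could be paired across groups, and the runs were compared within each library. The 2 runs of a library share most of their sites, and Fisher's exact test did not use this pairing. At Nfic the mean log2 odds ratio between the runs was 1.86 and passed in both libraries with the gene body alone (2.21), with 10 kb on each side (2.33) and, at 1.86, with a minimum of 20 peaks; with 1 library left out it was 1.46 to 2.25. Merging within 150 bp (1.51), equal list size (1.415), the looser and larger lists (1.17) and a minimum of 5 peaks (1.86) kept its sign without a call. Genes called higher in the first run, 16, numbered 30 to 109 with 1 library left out, 3 with the gene body, 3 with 10 kb, 3 in the looser and larger lists, 2 in the stronger 50%, 2 at equal list size, 9 with a minimum of 20 peaks and 0 with merging within 2 kb. Genes called lower, 1, numbered 1 to 9 with 1 library left out and 0 in the stronger 50%, at equal list size and with merging within 150 bp or 2 kb. With 50% reciprocal overlap, first-run peaks found in the second run fell from 93.75% to 56.25% at Nfia, 96.4% to 77.4% at Nfib and 90.0% to 54.1% at Nfix, and second-run peaks found in the first from 74.35% to 41.9% at Nfia, 71.6% to 61.55% at Nfic and 60.3% to 36.02% at Nfix. In the looser and larger lists the latter were 81.2% at Nfia, 84.2% at Nfic and 74.5% at Nfix. Left out in turn, the libraries gave the 2 values of the text. With promoter windows of 2500 bp, starts with a first-run peak in both libraries went from 2 to 4 at Nfia and at Nfix. Starts with a second-run peak went from 1 to 2 at Nfic and from 3 to 5 at Nfix. With 500 bp, first-run starts fell from 6 to 4 at Nfib and from 2 to 1 at Nfix. Second-run starts of Nfix fell from 3 to 2. No read depth is given in the files, so a site listed in 1 list and not in another cannot be called absent.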
